A study of Mus musculus with 18 samples.

Results

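The Schlafen family, 7 genes (Slfn1, Slfn2, Slfn3, Slfn4, Slfn5, Slfn8 and Slfn9), was followed through 18 RNA-seq libraries of mouse splenic B cells. The members were picked by gene name out of 28096 genes counted, with their levels by genotype and treatment already known, so all differences between groups below are descriptions and none is independent support for a pattern of the family. 6 of the 7 passed the filter on low counts and stood among 14161 genes tested, and Slfn4 did not pass. B cells came from C57BL/6 N mice at least 8 weeks old, either wild type (WT) or Ubiquilin-1 KO (Ubqln1-/-). The Ubqln1-/- line lacks exon 2 of Ubqln1, removed by Cre in embryonic stem cells, so the loss was not limited to B cells. Cells of each genotype were left without stimulation (resting), treated with anti-IgM F(ab)2 at 10 μg/mL, which crosslinks the B cell receptor (BCR), or given LPS from K12 E.coli at 20 μg/mL, a ligand of the Toll-like receptor TLR4. All were harvested at 4 hr, wells of a triplicate were pooled before the RNA was purified, and each of the 6 groups held 3 libraries. The libraries were made to see if small shifts in AKT and NF-kB signalling of Ubqln1-/- cells after BCR stimulation carried through to gene expression.

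Schlafen genes are found in mammals as a cluster of related genes, many of which are induced by type I interferon, and their first known members were described as regulators of lymphocyte growth. Mouse members fall into short proteins (Slfn1, Slfn2), intermediate proteins (Slfn3, Slfn4) and long proteins (Slfn5, Slfn8, Slfn9), the last of which carry a helicase-like part at the C-terminus. Slfn2 is known as a factor that keeps lymphocytes quiescent, and its loss of function in mice leads to immune cells that fail to hold the resting state.

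All 7 genes lie on mouse chromosome 11 (GRCm38.p6, RefSeq), inside a Schlafen cluster of 344 kb. Slfn5 (chr11:82951349-82964850, + strand) stands at its left end. Slfn9 (chr11:82974316-82991830, - strand) and Slfn8 (chr11:83002125-83020810, - strand) follow. Slfn2 (chr11:83065112-83070678), Slfn1 (chr11:83116820-83122670), Slfn4 (chr11:83175172-83190216) and Slfn3 (chr11:83191330-83215154) are all on the + strand. The pseudogene Slfn10-ps lies between Slfn8 and Slfn2, the lncRNA Slfn5os overlaps Slfn5 on the opposite strand, and Slfn14 closes the cluster on the right.

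Promoter sequence is shown here because the choice of genes did not use it. Of the cluster only the 7 members were searched one by one, so Slfn14 is not covered. In the RefSeq windows from 250 bases before to 50 bases after each annotated start, 3 of 7 members held the core of an interferon response element, searched on both strands as GAAA, any 2 bases and GAAA again. Among 32851 promoter windows of the same length 3.44% held it. The 3 were the long members, and the match is in capitals:
Slfn5, chr11:82951907-82951996, + strand: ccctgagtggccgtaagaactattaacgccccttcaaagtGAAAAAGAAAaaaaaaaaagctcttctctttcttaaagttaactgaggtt
Slfn8, chr11:83020809-83020898, - strand: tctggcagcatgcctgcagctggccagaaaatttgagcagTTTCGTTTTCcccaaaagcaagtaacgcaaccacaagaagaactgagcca
Slfn9, chr11:82991826-82991915, - strand: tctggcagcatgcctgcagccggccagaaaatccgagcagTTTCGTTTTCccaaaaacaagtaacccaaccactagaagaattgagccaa
Counted from the annotated start, the match ran from -155 to -146 in Slfn5, from -48 to -39 in Slfn8 and from -45 to -36 in Slfn9, in the last 2 on the other strand. Counted from another annotated start of Slfn8, a match ran from -136 to -127. The printed stretches of Slfn8 and Slfn9 are closely alike, so their matches are not separate cases beside the share of all windows. The start used for Slfn5 lies inside the gene's RefSeq span. The short and intermediate members had no match to the interferon response element core in these windows. A string shared by their 4 windows was then sought, so its presence in all 4 was fixed by that choice. ACTTCCTGG, the longest string common to their 4 windows (9 bases) and thus picked from these sequences, was held on either strand by 0.843% of all windows:
Slfn1, chr11:83116706-83116794, + strand: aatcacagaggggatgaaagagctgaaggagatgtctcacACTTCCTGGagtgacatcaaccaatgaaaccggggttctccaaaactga
Slfn2, chr11:83065017-83065105, + strand: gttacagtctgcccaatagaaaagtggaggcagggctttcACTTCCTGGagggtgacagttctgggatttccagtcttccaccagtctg
Slfn3, chr11:83191248-83191336, + strand: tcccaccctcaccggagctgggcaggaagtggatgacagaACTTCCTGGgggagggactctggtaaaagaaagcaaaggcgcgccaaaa
Slfn4, chr11:83175073-83175161, + strand: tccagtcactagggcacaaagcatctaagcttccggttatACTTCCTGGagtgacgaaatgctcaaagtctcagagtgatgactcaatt
The core of a gamma-activated site (TTC, any 3 bases, GAA, in 8.3% of all windows) and a kappa B element (GGG, any 2 bases, TTTCC, in 1.63%) were in 0 of 7. The strings do not overlap one another in these members. A match of letters is not a site of binding.

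Library totals ran from 15368941 to 41072854 counts with a median of 23257531. Ubqln1 stood at 230 to 339 CPM (counts scaled to a common library size, with TMM factors) in the 9 WT libraries and at 91.4 to 128 CPM in the 9 Ubqln1-/- libraries, whose remaining exons were still counted. Summed CPM of 7 B cell markers was 6870 to 8520 in resting and LPS-treated groups and 2640 to 3190 after anti-IgM. Summed T cell markers (7 genes) were 31.9 to 67.2 CPM in resting and LPS-treated cells and 122 to 223 CPM after anti-IgM. Cd3e was at 3 counts or fewer in every library of each group. After anti-IgM so were Cd3d, Cd4 and Thy1 in WT cells and Thy1 in Ubqln1-/- cells. The other T cell markers of the list exceeded 3 counts in some library of those groups. Summed myeloid markers (9 genes) were 26.2 to 57.8 CPM at rest, 15.8 to 20.6 CPM after anti-IgM and 13.4 to 27.2 CPM with LPS, lower in all stimulated than in all resting libraries of the same genotype. NK cell markers (4 genes) summed to 1.91 to 4.71 CPM, dendritic cell markers (4 genes) to 11.1 to 67.3 CPM and erythroid markers (3 genes) to 0 to 3.62 CPM. The dendritic cell sum reached 67.3 CPM with LPS and at most 28.2 CPM in the other groups. The part of these cells in the Schlafen values was not tested. In bulk RNA, fewer cells of a type and less RNA per cell cannot be told apart. The labels do not name the animal behind each library, so p-values measure the spread between libraries.

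Levels of different genes were compared per length, as RPKM on TMM-scaled library sizes. Slfn2 dominated the family in every group. The 7 members summed to 300.3 ± 12.2 RPKM (SD, n = 3) in resting WT cells, 136.8 ± 6.26 after anti-IgM and 273.3 ± 20.0 after LPS. The corresponding sums in Ubqln1-/- cells were 322.6 ± 13.6, 145.5 ± 1.4 and 230.0 ± 10.3 RPKM. Slfn2 made up between 86.6% of the sum (WT, LPS) and 95.0% (WT, anti-IgM) on average. In resting WT cells Slfn8 came next with 4.13 ± 0.674% of the summed RPKM, followed by Slfn3 (1.09 ± 0.25%) and Slfn5 (1.06 ± 0.422%), which overlapped. Slfn9 and Slfn1 held 0.381% each and overlapped as well, and Slfn4 was last at 0.00641 ± 0.00274%. After anti-IgM, Slfn3 stood beside Slfn8 in second place (2.2 ± 0.262% and 1.92 ± 0.266%, overlapping). With LPS in WT cells, Slfn8 (7.11 ± 1.34%) and Slfn5 (4.35 ± 1.97%) overlapped and both lay above Slfn3 (1.12 ± 0.174%). Slfn4 stayed last in all 6 groups.

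**Figure D1:**
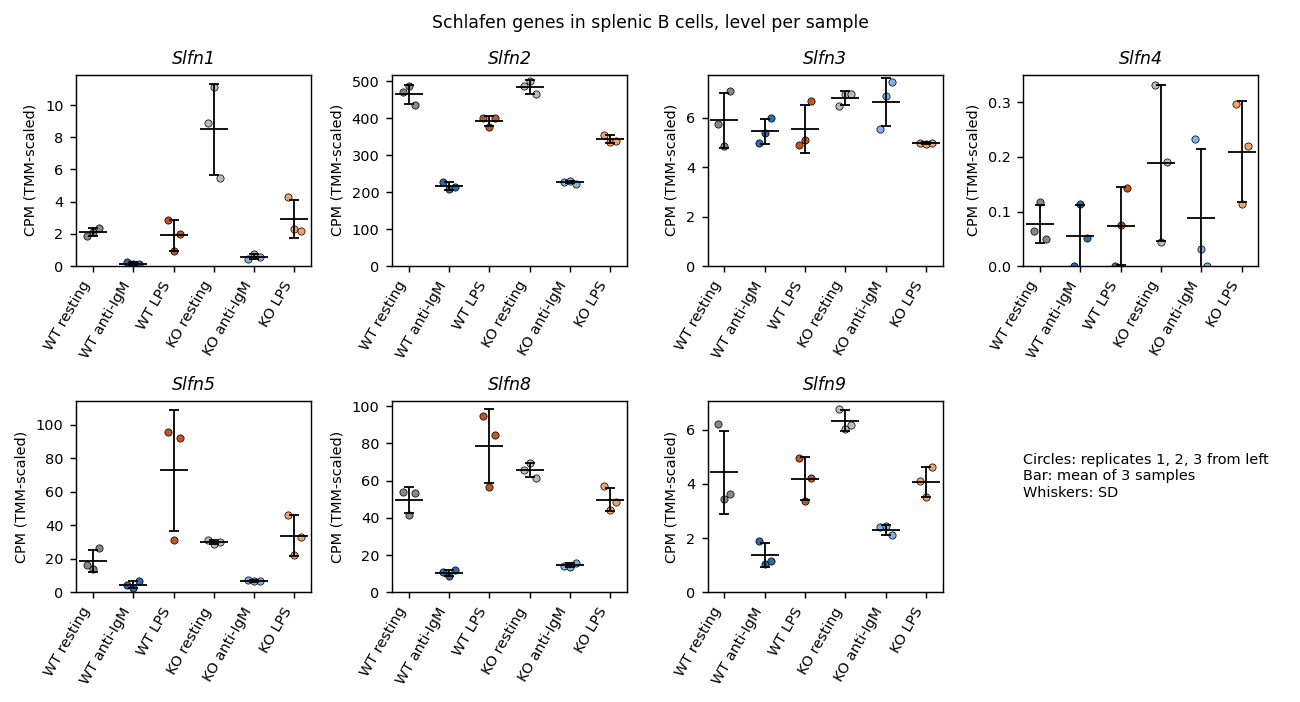
CPM on TMM-scaled library sizes of the 7 Schlafen genes in each of the 18 libraries, on linear axes from 0 with a scale of its own for each gene. Circles are replicates 1, 2 and 3 of a group from left to right, the bar is the mean and the whiskers the SD. Slfn1, Slfn2, Slfn5, Slfn8 and Slfn9 are low after anti-IgM in both genotypes. The means of Slfn5 and Slfn8 are highest in LPS-treated WT cells, whose replicate 2 lies below some Ubqln1-/- libraries.

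After 4 hr of anti-IgM, 5 of the 6 tested members (Slfn1, Slfn2, Slfn5, Slfn8, Slfn9) had fallen in WT cells and the same 5 in Ubqln1-/- cells. Here and below a gene is called when its adjusted p from edgeR's quasi-likelihood test, Benjamini-Hochberg over 14161 genes, is under 0.05. At that rule 32.2% of all tested genes were called lower in WT and 32.4% in Ubqln1-/- cells, so calls as such were common in these comparisons. Changes from here on are log2 fold changes of fitted CPM, ± SE. The fall ran from 1.10 (Slfn2) to 3.74 (Slfn1) on the log2 scale in WT cells. Slfn3 was the tested member that was not called. Each of the 5 had no overlap between stimulated and resting libraries in either genotype, as was the case for 66.2% of all genes in WT and 71.3% in Ubqln1-/- cells.

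Slfn2, the most abundant member, was at 471, 486 and 437 CPM in the 3 resting WT libraries and at 228, 208 and 213 CPM after anti-IgM. In resting Ubqln1-/- cells Slfn2 was at 487, 502 and 465 CPM, and after anti-IgM at 228, 229 and 223 CPM. All stimulated libraries lay below all resting ones in each genotype. The log2 fold change was -1.10 ± 0.06 in both, a level 2.15-fold lower in WT and 2.14-fold lower in Ubqln1-/- cells.

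Slfn1, the other short member, was at 1.85, 2.10 and 2.39 CPM in resting WT cells. After anti-IgM it was at 0.239, 0.114 and 0.101 CPM, which rests on 6, 3 and 2 counts. Slfn1 therefore had the largest fitted decrease of the family, -3.74 ± 0.57, on few counts, and the resting and stimulated libraries did not overlap. Slfn1 in Ubqln1-/- cells went from 8.90, 11.1 and 5.46 CPM at rest to 0.433, 0.720 and 0.593 CPM, based on 13 to 23 counts. That was a log2 fold change of -3.85 ± 0.40.

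Slfn8, a long member, was at 53.7, 41.8 and 53.3 CPM in resting WT cells and at 11, 8.71 and 11.9 CPM after anti-IgM. Its Ubqln1-/- libraries were at 65.7, 69.5 and 61.7 CPM at rest and at 14.4, 13.7 and 15.7 CPM after anti-IgM. Groups were far apart in both genotypes, with log2 fold changes of -2.24 ± 0.17 and -2.17 ± 0.17. Slfn5, also of the long class, went from 16.2, 13.9 and 26.4 CPM in resting WT cells to 4.23, 2.84 and 6.69 CPM. Slfn5 in Ubqln1-/- cells was at 31.3, 29.1 and 29.9 CPM at rest and at 7.26, 6.58 and 6.71 CPM after anti-IgM. The Slfn5 changes were -2.06 ± 0.42 in WT and -2.13 ± 0.39 in Ubqln1-/- cells, again with no overlap. Slfn9, the least abundant of the long class, was at 3.43 to 6.20 CPM in resting WT cells and 1.06 to 1.88 CPM after anti-IgM, a change of -1.66 ± 0.25. Slfn9 in Ubqln1-/- cells ranged from 6.04 to 6.77 CPM and from 2.10 to 2.44 CPM, a change of -1.44 ± 0.23.

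Slfn3, of the intermediate class, was at 5.75, 4.87 and 7.07 CPM in resting WT cells and at 4.99, 5.38 and 5.98 CPM after anti-IgM. The groups overlapped and the log2 fold change was -0.11 ± 0.15. For Ubqln1-/- cells it was -0.04 ± 0.15 with overlapping groups. Slfn4, the other intermediate member, had between 0 and 7 counts in any library and at most 0.332 CPM, and was at 0 counts in 3 libraries. A count of 0 allows up to 3 counts, which is 0.0969 to 0.137 CPM in those libraries, so no difference in Slfn4 was detectable at this depth. Such limits and counts cover counting error only.

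With LPS the family divided. In WT cells Slfn5 and Slfn8 rose, Slfn2 fell, and Slfn1, Slfn3 and Slfn9 were not called. Calls of either sign covered 61.2% of all tested genes, 31.2% higher and 30.1% lower. In Ubqln1-/- cells 5 of the 6 were lower (Slfn1, Slfn2, Slfn3, Slfn8, Slfn9), against 30.2% of all genes called lower, and Slfn5 was not called. Groups did not overlap for the 3 members called in WT and the 5 called in Ubqln1-/- cells, as for 62.3% and 67.6% of all genes.

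Slfn5 stood at 95.3, 31.0 and 91.8 CPM in LPS-treated WT cells, above the 13.9 to 26.4 CPM of the resting ones. Replicate 2 was thus close to the resting range while the other 2 libraries stood well apart from it. The log2 fold change was 1.95 ± 0.36, a level 3.86-fold that at rest. In Ubqln1-/- cells Slfn5 was at 46.2, 22.1 and 33.0 CPM with LPS and 29.1 to 31.3 CPM at rest. These groups overlapped, with a log2 fold change of 0.15 ± 0.36.

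Slfn8 was at 94.6, 56.5 and 84.8 CPM in LPS-treated WT cells and 41.8 to 53.7 CPM at rest. It rose by 0.67 ± 0.16 on the log2 scale, or 1.59-fold, and replicate 2 was again the lowest stimulated library. Ubqln1-/- cells had Slfn8 at 56.9, 44.4 and 48.3 CPM with LPS, all below the 61.7 to 69.5 CPM at rest. That was a decrease of -0.40 ± 0.16, whose call was lost when any one of 4 libraries was left out (KO resting replicate 1 or 2, KO LPS replicate 2 or 3, adjusted p from 0.0819 to 0.141).

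Slfn2 was at 401, 377 and 401 CPM in LPS-treated WT cells, a change of -0.24 ± 0.05 from rest. In Ubqln1-/- cells it was at 355, 336 and 339 CPM, a change of -0.50 ± 0.05. LPS therefore left Slfn2 between the resting and the anti-IgM level in both genotypes. Slfn1 was at 2.87, 0.940 and 1.97 CPM in LPS-treated WT cells, overlapping rest (-0.16 ± 0.37). Ubqln1-/- cells had Slfn1 at 4.28, 2.33 and 2.20 CPM with LPS, below every resting library (-1.55 ± 0.34).

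Slfn9 was at 3.38 to 4.97 CPM with LPS in WT cells, overlapping rest (-0.06 ± 0.22), and at 3.50 to 4.61 CPM in Ubqln1-/- cells, below rest (-0.64 ± 0.22). Slfn3 was at 4.91 to 6.66 CPM in WT cells (-0.09 ± 0.15) and at 4.92 to 4.99 CPM in Ubqln1-/- cells, where it fell by 0.45 ± 0.15. The Slfn9 call in Ubqln1-/- cells was lost without KO resting replicate 1 (adjusted p = 0.0607) or KO LPS replicate 2 (adjusted p = 0.0849). Without KO LPS replicate 2 Slfn3 also missed the threshold (adjusted p = 0.0504), which left 2 members called lower, and without KO resting replicate 1 there were 3. All these adjusted p values are from edgeR. With the replicate number as a block edgeR called Slfn8 (-0.41, adjusted p = 0.00405), Slfn9 (-0.64, adjusted p = 0.00225) and Slfn3 (-0.45, adjusted p = 0.00366) lower in LPS-treated Ubqln1-/- cells. The share of all genes called with the block is not reported here.

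**Figure D2:**
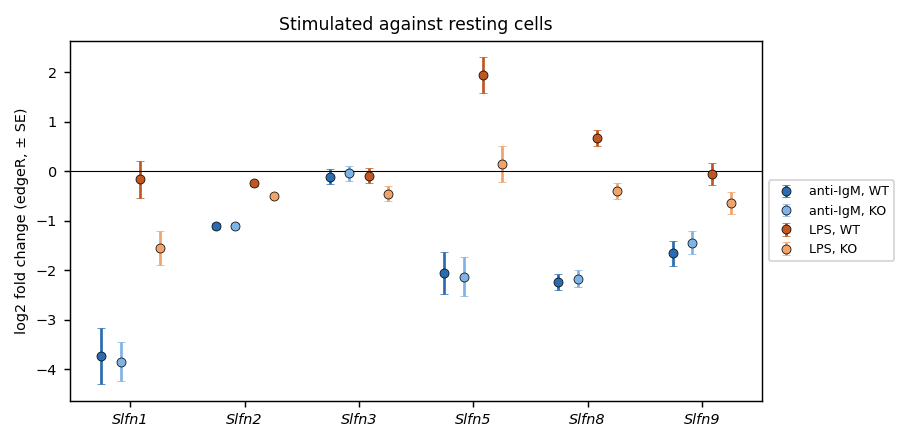
Log2 fold changes (edgeR, ± SE) of stimulated against resting cells for the 6 tested members, with anti-IgM in blue and LPS in orange, WT dark and KO light. The blue points of 5 members lie between -1.10 and -3.85, while the dark orange points run from -0.24 for Slfn2 to 1.95 for Slfn5.

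Set against each other at the same hour, LPS-treated WT cells had higher levels than anti-IgM-treated WT cells for 5 of 6 tested members, where 17.4% of all genes were called higher. The differences were 4.01 ± 0.42 for Slfn5, 3.58 ± 0.56 for Slfn1, 2.90 ± 0.17 for Slfn8, 1.60 ± 0.24 for Slfn9 and 0.86 ± 0.05 for Slfn2, and Slfn3 was at 0.03 ± 0.15. In Ubqln1-/- cells the same 5 were higher, by 2.29 ± 0.39, 2.30 ± 0.42, 1.77 ± 0.17, 0.80 ± 0.23 and 0.60 ± 0.05 in that order, where 16.8% of all genes were. The Slfn9 call was lost without KO anti-IgM replicate 3 (edgeR adjusted p = 0.0534) or KO LPS replicate 3 (adjusted p = 0.0601). Slfn3 was lower there by 0.41 ± 0.15 (14.5% of all genes were called lower), a call lost without any of 5 libraries and with limma (adjusted p = 0.068). With the replicate number as a block edgeR called both Slfn9 (adjusted p = 0.00139) and Slfn3 (adjusted p = 0.0111). These differences share their libraries with the comparisons to rest and are not further evidence for them. By the study's own thresholds (an absolute log2 fold change over 2 and an adjusted p under 0.001) edgeR gave 3 members after anti-IgM in WT and 3 in Ubqln1-/- cells, where 3.76% and 3.64% of all genes passed. After LPS they gave 0 in each, with 1.8% and 1.74% of all genes, and between LPS and anti-IgM 3 and 2, with 2.51% and 2.24%. Between genotypes they gave 0 members in each of the 3 conditions and 0.00706% of all genes. At the 0.05 threshold edgeR, limma and DESeq2 all called 3 members after LPS in WT and 5 in Ubqln1-/- cells.

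Without stimulation, Slfn1 was the only member called between genotypes. Slfn1 was at 5.46 to 11.1 CPM in Ubqln1-/- cells and 1.85 to 2.39 CPM in WT cells, 4.00-fold higher (log2 fold change 2.00 ± 0.35, edgeR adjusted p = 0.0494), where 0.0565% of all genes were called. DESeq2, which called 32 of all genes, called it as well. The call was lost with limma (adjusted p = 0.0798), and without each of 5 of the 6 libraries the edgeR adjusted p was 0.164 to 0.346, although the difference itself stayed between 1.75 and 2.08. Slfn5 (0.68 ± 0.37), Slfn8 (0.41 ± 0.16), Slfn9 (0.54 ± 0.22), Slfn3 (0.21 ± 0.15) and Slfn2 (0.06 ± 0.05) had positive differences that were not called. The Slfn5 and Slfn8 groups did not overlap, as was true of 7.89% of all genes.

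After anti-IgM, 0 of 6 members were called between genotypes by edgeR, limma or DESeq2, where edgeR called 0.0989% of all genes. At an unadjusted p under 0.05 edgeR gave 728 of all 14161 genes. Among them were 3 members, Slfn1 (1.88 ± 0.67, adjusted p = 0.709), Slfn8 (0.47 ± 0.18, adjusted p = 0.766) and Slfn9 (0.76 ± 0.26, adjusted p = 0.647). Each of the 3 was higher in all 3 Ubqln1-/- libraries than in any WT library, and 11.4% of all genes had groups that did not overlap. Slfn2, Slfn3 and Slfn5 overlapped between genotypes.

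With LPS the differences of Slfn5 and Slfn8 had the opposite sign. Slfn5 was at 22.1 to 46.2 CPM in Ubqln1-/- cells and 31.0 to 95.3 CPM in WT cells (-1.11 ± 0.35, edgeR adjusted p = 0.638). Slfn8 was at 44.4 to 56.9 CPM and 56.5 to 94.6 CPM (-0.66 ± 0.16, adjusted p = 0.24). Both pairs of groups overlapped through the low WT replicate 2. By edgeR 0 of 6 members were called, where 0.0424% of all genes were. At an unadjusted p under 0.05 edgeR gave 3 members (Slfn2, Slfn5, Slfn8) and 557 of all 14161 genes. By limma 0 members and 5 of all genes were called. By DESeq2 2 members (Slfn2 and Slfn8) and 51 of all genes were called. With the replicate number as a block, which pairs these samples, edgeR called Slfn5 (-1.05, adjusted p = 0.0427) and Slfn8 (-0.64, adjusted p = 0.00923). Without WT LPS replicate 2 the values were -1.48 (adjusted p = 0.0293) and -0.85 (adjusted p = 0.00595). The share of all genes called with the block or without that library is not reported here. Slfn1 (0.61 ± 0.36), Slfn2 (-0.19 ± 0.05), Slfn3 (-0.16 ± 0.15) and Slfn9 (-0.05 ± 0.22) were not called, although the 3 Ubqln1-/- values of Slfn2 lay below all 3 WT values, as the groups of 7.01% of all genes did not overlap.

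**Figure D3:**
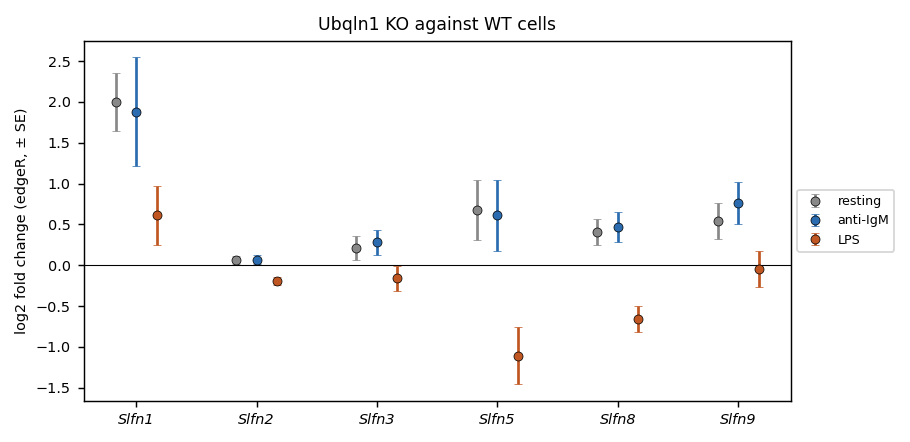
Log2 fold changes (edgeR, ± SE) of Ubqln1-/- (KO) against WT cells for the 6 tested members, at rest (grey), after anti-IgM (blue) and after LPS (orange). Slfn1 lies highest at rest at 2.00, and the LPS points of Slfn5 (-1.11) and Slfn8 (-0.66) lie below 0 while their other points lie above it.

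The difference between genotypes in the response to a stimulus was tested directly as an interaction. For LPS it was negative for all 6 tested members, with -1.79 ± 0.51 for Slfn5, -1.39 ± 0.50 for Slfn1, -1.06 ± 0.22 for Slfn8, -0.59 ± 0.31 for Slfn9, -0.37 ± 0.22 for Slfn3 and -0.26 ± 0.08 for Slfn2. The signs come from the same libraries and are not separate evidence, and the share of all genes with a negative value is not reported here. None of the 6 members was called by edgeR, limma, DESeq2 or the blocked fit, and 4 (Slfn1, Slfn2, Slfn5, Slfn8) had an unadjusted edgeR p under 0.05. Of all 14161 genes 0.0% were called by edgeR in this interaction, 0 by limma and 0 by DESeq2, and 220 had an unadjusted p under 0.05. Without WT LPS replicate 2 edgeR called Slfn5 (-2.16, adjusted p = 0.0487) and Slfn8 (-1.26, adjusted p = 0.0151). The share of all genes called in the interaction without that library is not reported here, so these 2 calls cannot be set against it. For anti-IgM the interactions of the 6 members lay between -0.11 and 0.22, with 0 members called by edgeR, limma or DESeq2 and 0 at an unadjusted p under 0.05. Across all genes 0.0% were called there as well by edgeR, with 140 at an unadjusted p under 0.05.

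The interferon pathway was followed through 27 genes, of which 26 were tested. Ifnb1, the gene of interferon beta, was at 0 counts in all libraries of the resting and anti-IgM groups and at no more than 0.127 CPM with LPS. Of 4 receptor and signalling genes (such as Ifnar1 and Jak1), 3 were lower after anti-IgM and 2 lower after LPS in WT cells. Of 6 transcription factor genes (such as Irf7 and Irf9), 5 were lower after anti-IgM and 3 higher after LPS. Of 16 interferon-induced genes, 7 were lower and 1 higher after anti-IgM, and all 16 were higher after LPS. Of all tested genes in WT cells 32.2% were called lower and 32.4% higher after anti-IgM, and 30.1% lower and 31.2% higher after LPS. Over the 26 tested genes in WT cells the median log2 fold change was -0.75 after anti-IgM and 1.76 after LPS, beside -0.01 in each for all genes.

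Among called genes of the list, the largest decreases after anti-IgM were those of Ifit2 (-2.25 ± 0.35), Ifit3 (-1.84 ± 0.67), Mx1 (-1.71 ± 0.46) and Rtp4 (-1.55 ± 0.41), antiviral or interferon-induced genes. Ifit2 fell from a mean of 14.2 to 2.99 CPM. The other named genes were low already at rest, with means of 1.44, 2.07 and 2.52 CPM, and stood at 0.446, 0.643 and 0.877 CPM after anti-IgM. After LPS the largest increases were those of the chemokine gene Cxcl10 (6.36 ± 0.36), Ifit1 (5.61 ± 0.41), the ubiquitin-like Isg15 (4.31 ± 0.29) and Rsad2 (4.25 ± 0.31). In LPS-treated Ubqln1-/- cells 14 of 26 were higher than at rest and the median was 0.59, where 30.6% of all genes were called higher. The WT values were 19 of 26 and 1.76, where 31.2% of all genes were, and the difference between these counts was not tested. Between genotypes with LPS 1 of the 26 was called, Irf9 (-0.46 ± 0.08, edgeR adjusted p = 0.0439), named after its value was seen, and the 16 induced genes had a median difference of -0.80 with 0 called.

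Summed CPM of the 16 induced genes was set beside the long members sample by sample. In WT cells it was 71.5, 67.6 and 74.0 at rest and 50.5, 47.5 and 63.5 after anti-IgM. With LPS it was 574, 406 and 482, lowest in replicate 2, the same library in which Slfn1, Slfn2, Slfn5, Slfn8 and Slfn9 were lowest among LPS-treated WT cells. That library also had the highest total count of the series, 41072854. In Ubqln1-/- cells the sum was 92.3, 88.9 and 76.5 at rest, 66.6, 61.8 and 58.6 after anti-IgM, and 415, 298 and 282 with LPS. Slfn5 and Slfn8 followed the order of the groups only in part. Resting Ubqln1-/- cells, at a fraction of the interferon-induced sum of LPS-treated Ubqln1-/- cells, had Slfn8 levels above them. The part of the interferon-induced level in the Schlafen values was not tested.

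**Figure D4:**
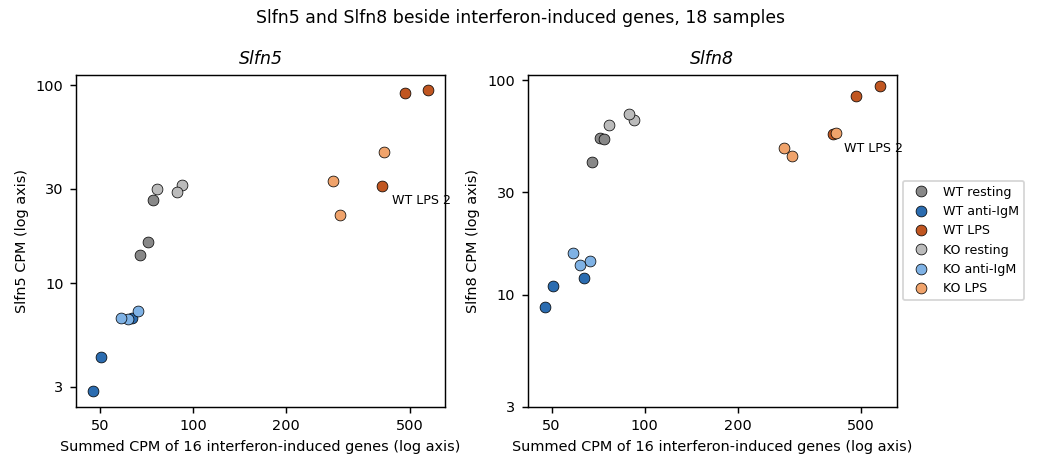
CPM of Slfn5 (left) and Slfn8 (right) in each of 18 libraries against the summed CPM of 16 interferon-induced genes, both on log axes, coloured by group. LPS-treated libraries lie at sums of 282 to 574 CPM and all others at 47.5 to 92.3 CPM, and WT LPS replicate 2 (labelled) lies beside the LPS-treated KO libraries.

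Because Slfn2 is linked to quiescence, 15 other genes tied to the resting state of lymphocytes were listed. After anti-IgM in WT cells 12 were lower, 1 higher and 2 not called, with a median of -0.52, where 32.2% of all genes were called lower. After LPS 11 were lower and 4 not called, with a median of -0.84, where 30.1% of all genes were called lower. The median of all genes was -0.01 in each case. Klf2, a transcription factor of resting lymphocytes, fell after both stimuli (-2.12 ± 0.17 and -1.87 ± 0.17), as did Klf3 (-1.35 ± 0.11 and -1.05 ± 0.11). Tsc22d3 (-1.42 ± 0.28) and Foxo1 (-1.41 ± 0.09) were the other large decreases after anti-IgM. After LPS they were Ccng2 (-1.78 ± 0.13) and the cell cycle inhibitor gene Cdkn1b (-1.14 ± 0.07). Slfn2 itself fell further after anti-IgM than after LPS, while the list had the lower median after LPS. With LPS set directly against anti-IgM in WT cells, 3 of the 15 were higher, 4 lower and 8 not called. Their median there was 0.11, so the list as a whole did not differ in one direction between the stimuli.

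Over the 18 libraries the genes with the log2 CPM pattern most like that of a member were sought among 9102 tested genes with a mean of at least 10 CPM. The measure was Pearson's r, and the 18 points share the 6 groups, so that r mainly reflects differences between treatments. Slfn5 was most like Irf7 (0.98), Dhx58 (0.97) and Igtp (0.97), all known as interferon-responsive genes. Slfn8 was most like 2 genes without a matched symbol (1.0 and 0.99) and Gm1966 (0.99). Slfn2 was closely matched by Gimap3 (0.99) and Ifi209 (0.98). Slfn1 came with Gsdmd (0.96), Tap1 (0.94) and Herc2 (0.94), and Slfn9 with Spidr, Cep128 and Tacc1 at 0.95 each. Slfn3 had weaker matches, 5730455P16Rik (0.81), Rlf (0.79) and Ttc39b (0.77). Among members, Slfn5 and Slfn8 were most alike (0.95), followed by Slfn1 and Slfn9 (0.93). Slfn3 had an r between -0.03 and 0.18 with the other 5.

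Most of the tested genes around the cluster were called higher after anti-IgM. Of 12 neighbouring or interspersed genes in the files 8 were tested, and in WT cells 6 of these were higher and 2 lower after anti-IgM, with a median of 0.60, where 32.4% of all genes were called higher and 32.2% lower. The 2 that fell were Rffl and Rad51d, at -0.43 each, named after their values were seen. After LPS 5 were higher, 1 lower and 2 not called, with a median of 0.33, where 31.2% of all genes were called higher and 30.1% lower. Changes over 1 on the log2 scale were those of Nle1, a ribosome assembly factor, at 1.69 ± 0.13 and 1.66 ± 0.13, and of the low-level Fndc8 at 2.03 ± 0.43 and 2.28 ± 0.41. Inside the cluster, the pseudogene Slfn10-ps fell after anti-IgM (-0.98 ± 0.28 in WT) and was not called after LPS (0.46 ± 0.25). Slfn5os moved with Slfn5, at -1.93 ± 0.74 after anti-IgM on 1 to 4 counts and 2.27 ± 0.46 after LPS. The 2 genes overlap and their reads cannot be told apart here, so Slfn5os is not a separate case. Slfn14 had at most 6 counts in a library and Slfnl1, on chromosome 4, at most 7.

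**Figure D5:**
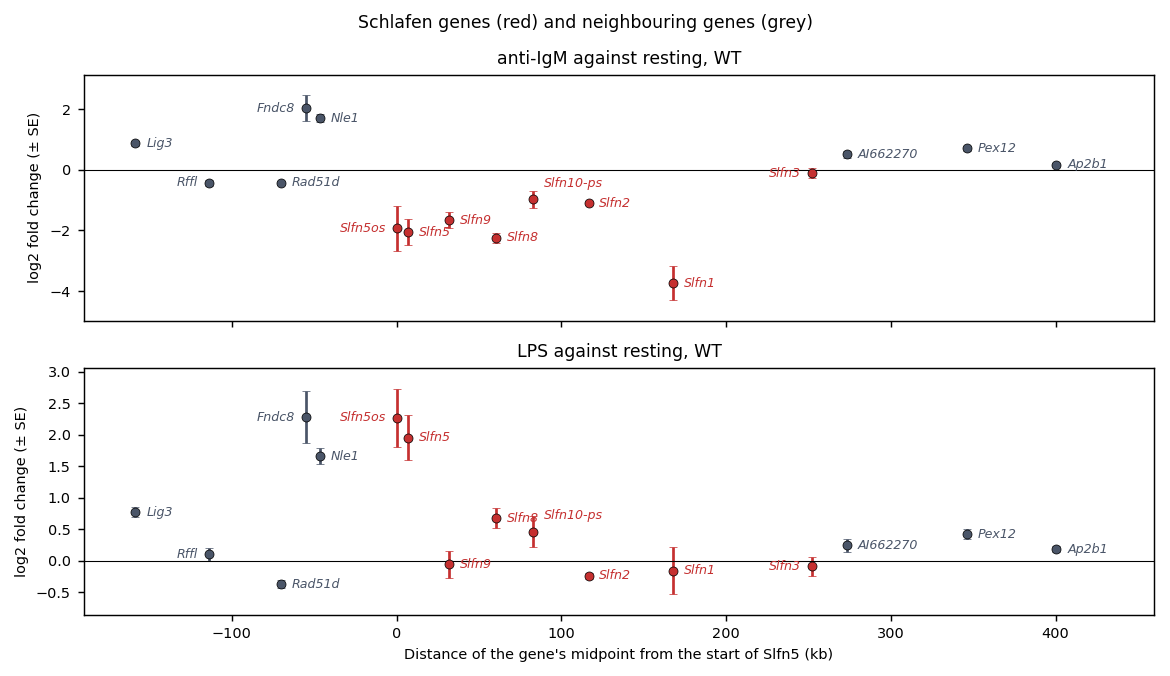
Log2 fold change (edgeR, ± SE) after anti-IgM (top) and LPS (bottom) in WT cells against the distance of a gene's midpoint from the start of Slfn5, in kb, for tested Schlafen genes (red) and their neighbours (grey). After anti-IgM, red points except Slfn3 (-0.11) lie at -0.98 or lower while grey points lie between -0.43 and 2.03.

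Members share sequence, which bears on how reads of 50 bases could be assigned. Of the 50-base windows of the Slfn8 transcript nearest in length to the exonic width in the files, 9.82% were also present in Slfn9 transcripts and 10.7% in Slfn10-ps. For Slfn9, 10.2% were shared with Slfn8 and 12.7% with Slfn10-ps, and for Slfn3 14.3% with Slfn4. Counting any other gene, the shares were 15.4% for Slfn8, 17.6% for Slfn9, 23.7% for Slfn3, 11.8% for Slfn5 and 11.6% for Slfn4. Slfn2 shared 4.27% with Slfn4 and Slfn1 0.606%. Slfn5 shared 7.88% with the overlapping Slfn5os, whose reads cannot be told apart from those of Slfn5 in a library kit that does not mark strand. How such reads were counted is not given in the sources used here.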

How the data were processed

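Each of the 18 libraries (polyA RNA, TruSeq v2, single-end 50-base reads) was deposited by the authors as a table with raw read counts over the exons of each gene, the exonic width, and RPKM. Per the labels and the study's methods, reads were aligned to GRCm38 with GSNAP, and the authors analysed them with limma in R 3.2.2. The counter, annotation and strand setting are not given in the sources used here. The deposited RPKM divides by totals of 18348317 to 47257565 reads, of which the counts hold 83.8 to 88.4%. RPKM was therefore recomputed on TMM-scaled count totals, with the deposited RPKM as an alternative. Entrez identifiers were matched to RefSeq symbols (GRCm38.p6) for 25035 of 28096 genes (89.1%), which held 95.76 to 96.17% of counts. No column belonged to another series.

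Counts were fitted with edgeR 4.0.16 (TMM, filterByExpr, quasi-likelihood test) on all 6 groups, leaving 14161 genes. SE is the absolute log2 fold change over the square root of F. The fit was tested on simulated data. limma 3.58.1 (voom), DESeq2 1.42.0, RLE factors, other filters, other sets of samples, summed copies, the study's thresholds and a replicate block were alternatives. Motifs and shared windows used RefSeq and GENCODE M21 sequences with Python 3.11.15. The members, lists and naming rule were chosen with earlier results of these data known. Named were all members, other Slfn genes, Ubqln1, neighbours called with an absolute log2 fold change over 1 in WT, up to 4 called genes per list and stimulus with the largest change in WT, and the 3 genes most like each member, of which 1 is not reported here.

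The titles number replicates 2 and 3 and leave the first unnumbered. Same-numbered samples deviated together (every pair's r over 0.1, lowest 0.21) in 8 of 9 comparisons, and not in resting Ubqln1-/- against WT (lowest 0.08). The study describes 3 independent experiments. The pairing rests on this check, since the labels do not say what a number marks. No replicate libraries were duplicates, as their counts differed beyond sampling noise.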

Additional observations from a re-analysis of the deposited data

Results flagged for a closer look

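The response of Slfn8 to LPS had opposite signs in the 2 genotypes, a difference that no tool called. Its 3 LPS-treated WT libraries (56.5 to 94.6 CPM) all lay above the mean of resting WT cells (49.6 CPM), while its 3 LPS-treated Ubqln1-/- libraries (44.4 to 56.9 CPM) all lay below that of resting Ubqln1-/- cells (65.6 CPM). The decrease in Ubqln1-/- cells was no longer called by edgeR without any one of 4 of the 6 libraries (adjusted p from 0.0819 to 0.141) or with no filter beyond 1 count (adjusted p = 0.0519). With the replicate block edgeR called this decrease (-0.41, adjusted p = 0.00405). The interaction of genotype and LPS for this gene was -1.06 ± 0.22 (log2) and was not called by edgeR (adjusted p = 1). The adjusted p was 0.0561 with the replicate block and 0.08 with DESeq2. Without WT LPS replicate 2, the library with the lowest interferon-induced sum among LPS-treated WT cells, it was 0.0151 at -1.26. The share of all genes called without that library is not reported here.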

How the results depend on the processing

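The counts of members called after anti-IgM in either genotype (5 of 6), after LPS in WT cells (3) and between LPS and anti-IgM in WT cells (5) were the same under every alternative run except 2, the filter of at least 10 counts in every sample, which drops Slfn1 and gave 4, 3 and 4, and the study's thresholds (absolute log2 fold change over 2, adjusted p under 0.001). Those left 3 and 3 members after anti-IgM in WT and Ubqln1-/- cells, 0 and 0 after LPS, 3 and 2 between LPS and anti-IgM, and 0 between genotypes at rest. Leaving out 1 library at a time gave 2 to 5 members after LPS in Ubqln1-/- cells, 4 to 6 between LPS and anti-IgM in Ubqln1-/- cells, 0 to 1 between genotypes at rest, 0 to 2 between genotypes with LPS and 0 to 2 for the interaction with LPS, the 2 in both cases without WT LPS replicate 2. Between genotypes at rest 0 members were called with limma, RLE factors, at least 10 counts in every sample, or only the groups compared. With LPS 2 were called with DESeq2, where 51 of all genes were, and 2 with the replicate block. The shares of all genes called with the block or without 1 library are not reported here. The block changed no other count of members by over 1.5 times. At rest, where 1 pair's correlation was under 0.1 although 6 of 6 samples were closest to their own number, it gave 1 (Slfn1, edgeR adjusted p = 0.00438). Slfn8 and Slfn9 counted as 1 gene had a response to LPS in WT cells of 0.62, which is close to that of Slfn8, the bulk of the sum, and says nothing of Slfn9 itself. Leaving out 1 library turned the sign of uncalled changes only. After anti-IgM Slfn3 ranged from -0.23 to 0.04 (WT) and -0.11 to 0.08 (Ubqln1-/-), after LPS in WT cells Slfn1 from -0.58 to 0.19, Slfn3 from -0.23 to 0.07 and Slfn9 from -0.21 to 0.24, and after LPS in Ubqln1-/- cells Slfn5 from -0.13 to 0.39. Between LPS and anti-IgM in WT cells Slfn3 ranged from -0.12 to 0.10, and between genotypes with LPS Slfn9 from -0.19 to 0.10. For the interaction with anti-IgM the ranges were -0.35 to 0.38 (Slfn1), -0.03 to 0.06 (Slfn2), -0.07 to 0.20 (Slfn3), -0.39 to 0.29 (Slfn5), -0.06 to 0.18 (Slfn8) and -0.07 to 0.53 (Slfn9). The cause of these changes was not tested. Of 42 group levels, 17 moved by more than 1 SD with the deposited RPKM. Depth limits Slfn4 and, after anti-IgM, Slfn1.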
